A study of Saccharomyces cerevisiae with 104 samples.

Results

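The 10 purine synthesis genes described here were taken by name from the gene abundance tables of 4 RNA-seq libraries of the budding yeast Saccharomyces cerevisiae. They are ADE1, ADE2, ADE3, ADE4, ADE6, ADE8, ADE12, ADE13, ADE17 and MTD1, and all 10 were found among the 7108 genes of each table, of which 5989 are nuclear protein-coding. The series also holds 100 ChIP-exo samples, which map protein contacts on DNA and are not analysed here. Its title and design text name the stalling of RNA polymerase II after acute hydrogen peroxide as the subject. All samples carry the same texts, with growth at 25 °C and exposure to 0.3 mM H2O2 for 6 min before formaldehyde crosslinking. No label separates the RNA-seq libraries by treatment, strain, genotype or replicate. They are therefore called libraries 1 to 4 as names only, each is described on its own, and no test between conditions was possible.

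Yeast builds purines on phosphoribosyl pyrophosphate (PRPP), adding atoms stepwise until inosine monophosphate (IMP) is formed, and then converts IMP to AMP or GMP. Folate cofactors carrying formyl groups supply carbons along the way. Most ADE genes are known targets of the transcription factors Bas1 and Pho2 (also called Bas2), which activate them when adenine is scarce.

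Levels are given as TPM, an abundance per gene length scaled to the same total in every library, and as a multiple of the median nuclear protein-coding gene of the same library. The 14 entries of ribosomal RNA genes held 45.5, 81.3, 71.8 and 85.1% of TPM in libraries 1, 2, 3 and 4, and nuclear protein-coding genes 46.9, 12.2, 21.2 and 5.77%. The median gene stood at 40.2, 7.501, 17.6 and 3.59 TPM in libraries 1, 2, 3 and 4, with a mean read depth (coverage) of 12.8, 3.70, 8.17 and 2.26. Read depth summed over the 10 members came to 731, 212, 391 and 101.9 kilobases. The members together held 0.105, 0.0222, 0.0407 and 0.00864% of TPM in that order. Within each table TPM was a constant multiple of coverage, so coverage gave the same multiples. Values in series below follow the order of libraries 1, 2, 3 and 4.

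Purine synthesis genes were mostly expressed above the median gene. In libraries 1, 2 and 4, 9 of the 10 members lay above it, and in library 3, 8 did. Among the 5667 protein-coding genes whose median TPM reached 1, the numbers above it were 2993, 2987, 2994 and 2993. MTD1 lay below in each library and ADE17 was just below in library 3. The members' median relative level, on the scale log2(multiple + 0.1) with the median gene set to 0, was 0.93, 1.51, 0.88 and 1.11. Over the 5667 protein-coding genes whose median TPM reached 1, a filter that all 10 members passed, the same median was 0.08 in every library. ADE2, ADE3, ADE6 and ADE13, 4 of 10 members, were at least 2-fold above the median gene in all libraries, against 15.3% of the 5667 genes. When the median gene was taken only over genes whose median TPM reached 10, 1 of the 10 members, ADE3, met that limit, against 7.71% of the 5667 genes.

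**Figure D1:**
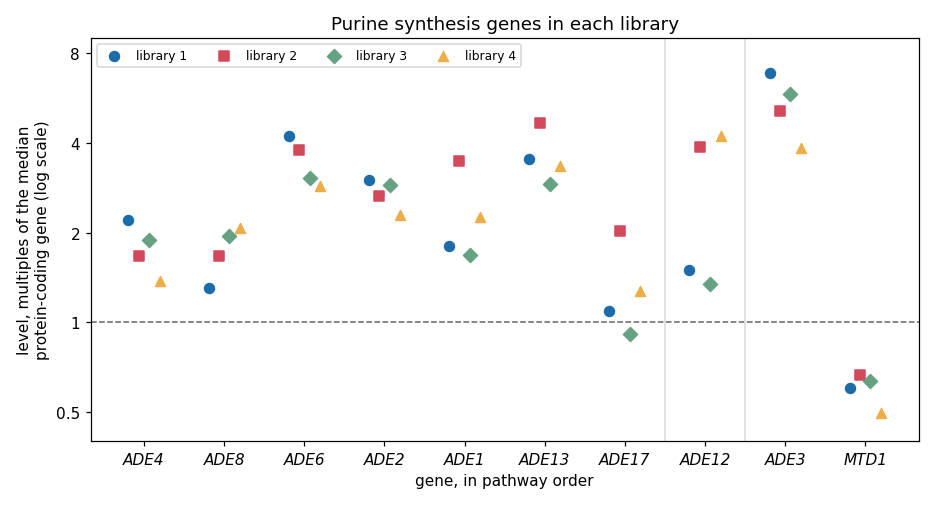
Level of each purine synthesis gene in each library, as a multiple of the median nuclear protein-coding gene (log axis; the dashed line marks the median gene). Genes run in the order of the IMP pathway from ADE4 to ADE17, followed by ADE12 and by the folate enzymes ADE3 and MTD1. Each symbol is 1 library. ADE3 runs from 3.85 to 6.85 multiples and is highest in libraries 1, 2 and 3, MTD1 lies below 1 throughout, and ADE12 stands at 1.34 and 1.503 in libraries 3 and 1 but at 3.88 and 4.21 in libraries 2 and 4.

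The first enzyme of the route, PRPP amidotransferase, is encoded by ADE4 (chromosome 13, 865559 to 867091). It stood at 88.6, 12.5, 33.3 and 4.93 TPM, or 2.20, 1.67, 1.89 and 1.37 multiples of the median gene. Library 1 was the highest and library 4 the lowest. ADE8 (chromosome 4, 1288215 to 1288859) encodes glycinamide ribonucleotide transformylase and is the shortest member at 645 bases. It had 52.5, 12.5, 34.4 and 7.43 TPM, or 1.30, 1.67, 1.95 and 2.07 multiples. Here library 4 was the highest and library 1 the lowest, the opposite of ADE4. ADE6 (chromosome 7, 611889 to 615965) encodes formylglycinamidine ribonucleotide synthetase and is the longest member at 4077 bases. It had 169.6, 28.3, 53.8 and 10.3 TPM, or 4.22, 3.78, 3.05 and 2.86 multiples, and library 1 was again highest.

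ADE2 (chromosome 15, 564476 to 566191) encodes aminoimidazole ribonucleotide carboxylase, whose loss gives the red colonies known from ade2 mutants. Its values were 121, 19.8, 51.02 and 8.24 TPM, or 3.004, 2.64, 2.90 and 2.29 multiples. The libraries lay close together, with library 4 somewhat lower. The gene of the following step, ADE1 (chromosome 1, 169375 to 170295), encodes SAICAR synthetase. It had 72.4, 26.2, 29.7 and 8.12 TPM, or 1.80, 3.49, 1.68 and 2.26 multiples. Library 2 stood above the others.

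ADE13 (chromosome 12, 844282 to 845730) encodes adenylosuccinate lyase, which acts both on the way to IMP and on the way from IMP to AMP. It had 141.6, 35.1, 51.1 and 12.05 TPM, or 3.52, 4.67, 2.90 and 3.35 multiples, with library 2 highest. ADE17 (chromosome 13, 507502 to 509280) encodes AICAR transformylase and IMP cyclohydrolase, the closing activities of the route. It had 44.03, 15.2, 16.1 and 4.56 TPM, or 1.09, 2.02, 0.915 and 1.27 multiples. As for ADE1, library 2 was highest, library 4 followed and library 3 was lowest.

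ADE12 (chromosome 14, 234413 to 235714) encodes adenylosuccinate synthase, which commits IMP to AMP, and it differed most between libraries. It had 60.4, 29.1, 23.6 and 15.1 TPM, or 1.503, 3.88, 1.34 and 4.21 multiples. Libraries 4 and 2 were high and libraries 1 and 3 low, with no value between 1.503 and 3.88. The highest multiple was 3.14-fold the lowest. ADE12 ranked at the 66.3rd, 88.7th, 62.3rd and 89.5th percentile of protein-coding genes.

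The folate enzymes stood at opposite ends of the level scale. ADE3 (chromosome 7, 905934 to 908774) encodes the cytosolic trifunctional enzyme that makes formyl-tetrahydrofolate. It had 275.5, 38.3, 103 and 13.8 TPM, or 6.85, 5.10, 5.83 and 3.85 multiples, and was the most abundant member in libraries 1, 2 and 3. In library 4 it came after ADE12. MTD1 (chromosome 11, 590395 to 591357) encodes the cytosolic NAD-dependent methylenetetrahydrofolate dehydrogenase. It had 24.2, 4.98, 11.2 and 1.79 TPM, or 0.602, 0.664, 0.635 and 0.497 multiples, the lowest of the members in each library. Its coverage in library 4 was 1.12, or 1.08 kilobases of read sequence over a gene of 963 bases, so that value is the least certain of the set.

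Ordered by their median multiple, the members ran ADE3 (5.47), ADE13 (3.44), ADE6 (3.41), ADE2 (2.77), ADE12 (2.69), ADE1 (2.03), ADE8 (1.81), ADE4 (1.78), ADE17 (1.18) and MTD1 (0.619). Of the 9 neighbouring pairs in that order, 8 had ranges over the libraries that overlapped. The exception was ADE17 and MTD1. ADE13 and ADE6 changed places between libraries, each being higher in 2 of them, and so did ADE2 and ADE12, ADE12 and ADE1, and ADE8 and ADE4. ADE1 lay above ADE8, and ADE4 above ADE17, in 3 libraries each. Of all 45 pairs of members, 31 kept the same order in every library. Genes far apart in level can keep their order whatever their profiles, and no share for pairs of other genes is given here.

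The span of a gene is its highest less its lowest relative level over the libraries, in log2 units. Purine synthesis genes spanned 0.66 at the median, and the 5667 protein-coding genes 0.79, with quartiles of 0.52 and 1.21. A span of at least 1, or 2-fold, was reached by 3 of 10 members, against 35.9% of the 5667 genes, so the members' share lay near the background. Those were ADE12 (1.58), ADE17 (1.06) and ADE1 (1.01). ADE3 followed just below the limit at 0.82. MTD1 (0.36) and ADE2 (0.38) spanned least. The calls for ADE17 and ADE1 depended on libraries 2 and 3, since without either of these libraries 1 member, ADE12, spanned 2-fold. Without library 2 their spans were 0.43 and 0.40, and without library 3 they were 0.83 and 0.92. ADE12 spanned 2-fold under each of 11 alternative settings, ADE17 under 8 and ADE1 under 4. Some of these settings could not change the spans: coverage and leaving out library 1 for ADE12, ADE17 and ADE1. The same holds for leaving out library 4 for ADE17 and ADE1, and library 2 for ADE12. ADE1 fell short with median-ratio scaling (0.98), with the higher median gene (0.98) and with log2(TPM + 1) (0.95), where ADE3 passed instead at 1.06. With an offset of 0.5 both ADE17 (0.83) and ADE1 (0.87) fell short. Among these settings, a share of the 5667 genes spanning 2-fold is given only for genes of like length, below.

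**Figure D2:**
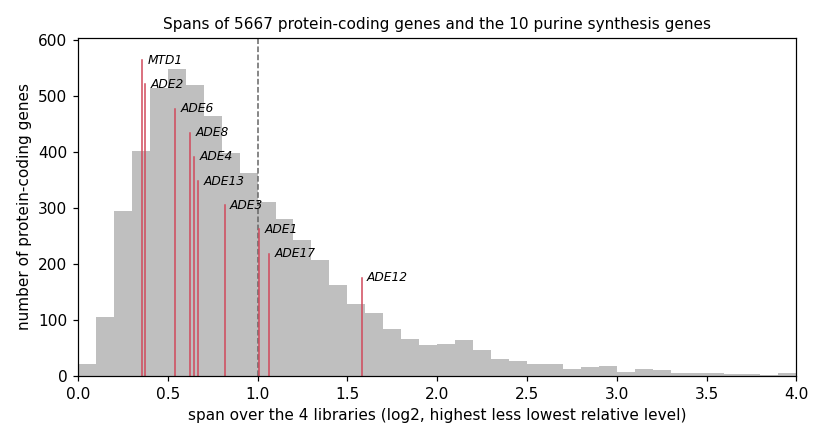
Histogram of the span over the 4 libraries (log2) for 5667 protein-coding genes in grey, with the 10 purine synthesis genes as red lines. The dashed line marks 2-fold, and 13 genes beyond a span of 4 are outside the axis. The members lie from 0.36 to 1.58 and most sit in the bulk of the distribution.

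The members did not share a profile over the libraries. After each gene's 4-library mean was subtracted, ADE3, ADE4 and ADE2 shared the order 1, 3, 2, 4 from high to low, an order held by 13.01% of the 5667 genes. ADE1 and ADE17 shared the order 2, 4, 1, 3, held by 8.65%. The other 5 members each had an order of their own. ADE1 and ADE17 were the most alike pair, since their centred profiles differed by at most 0.09 log2 units in any library. ADE3 and ADE4 followed at 0.11. ADE3 and ADE12 were the least alike, at up to 1.23. The highest relative level was in library 1 for 4 members, in library 2 for 4, in library 3 for 0 and in library 4 for 2. Among the 5667 genes these shares were 29.5, 27, 15.8 and 27.7%.

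**Figure D3:**
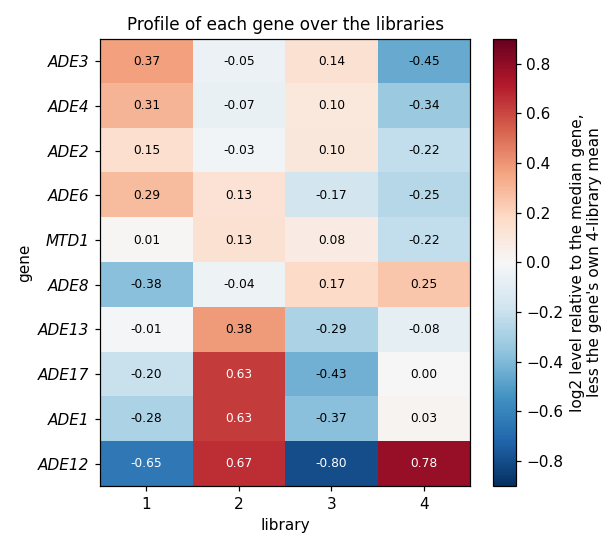
Relative log2 level of each purine synthesis gene in each library, less the gene's own mean over the 4 libraries (red above, blue below). ADE12 reaches 0.78 in library 4 and -0.80 in library 3, ADE1 and ADE17 reach 0.63 in library 2, and ADE3 and ADE4 run from 0.37 and 0.31 in library 1 to -0.45 and -0.34 in library 4.

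Gene length moved with these profiles. Across the 5667 genes, which are not independent and share each library, Spearman's rho between length and the centred level was 0.57 in library 1, -0.29 in library 2, 0.16 in library 3 and -0.42 in library 4. Among the 10 members it was 0.70, -0.27, 0.01 and -0.70. Longer genes thus stood relatively higher in library 1 and lower in library 4. ADE6 and ADE3, the longest members, were among those highest in library 1, and ADE8, the shortest, had its own lowest level there.

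Each gene was then also set against the median of the 300 protein-coding genes nearest to it in length, a comparison chosen after the data were seen. ADE12 kept its spread, at 0.51, 1.99, 0.33 and 2.06 log2 units and a span of 1.73. ADE17 stood at 0.09, 1.24, -0.01 and 0.51, with a span of 1.26. ADE1 stood at 0.81, 1.64, 0.67 and 1.03, with a span of 0.97, just under 2-fold. ADE3 drew together, at 2.35, 2.42, 2.38 and 2.05, and its span was 0.36 where it had been 0.82. In this setting 2 of 10 members spanned 2-fold, against 28.8% of the 5667 genes. The highest level was in library 1 for 1 member, in library 2 for 6, in library 3 for 2 and in library 4 for 1. Among the 5667 genes those shares were 21.5, 28.9, 22.6 and 27.1%. The order 2, 4, 1, 3 was then held by ADE1, ADE6, ADE13 and ADE17 and by 8.77% of the 5667 genes. It was the most frequent order among the members in this setting, so setting these shares side by side tests nothing. The order 1, 3, 2, 4, shared by ADE2, ADE3 and ADE4 before, was then held by no member. ADE2 and ADE3 took the order 2, 3, 1, 4, held by 3.12% of the 5667 genes, and ADE4 the order 1, 2, 3, 4. ADE8 took the order 3, 4, 1, 2, so library 1 was no longer its lowest.

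**Figure D4:**
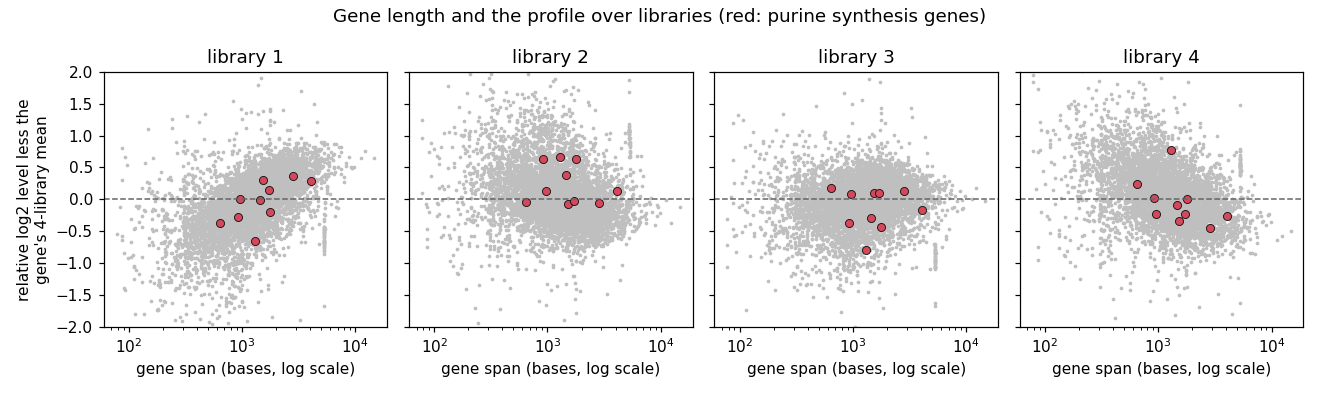
Centred relative log2 level against gene span in bases (log axis) in each library, for 5667 protein-coding genes in grey and the 10 purine synthesis genes in red. The cloud rises with length in library 1 (Spearman's rho 0.57) and falls in library 4 (-0.42), and ADE12, at 0.78, is the highest of the members in library 4. In all, 29 genes with a value beyond 2 log2 units in either direction are outside the axis.

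The remaining IMP pathway genes lie outside the member list. ADE5,7, whose protein carries the second and the fifth activity of the route, stood at 3.49, 4.74, 3.06 and 3.11 multiples, in the same library order as ADE13. Its span was 0.62, and against genes of like length it was 0.94, with an order of 2, 4, 3, 1 that differed from that of ADE13. ADE16, the paralog of ADE17 with the same activities, stood at 4.48, 3.70, 4.09 and 3.62 multiples. It was higher than ADE17 in each library and had a span of 0.30, where ADE17 spanned 1.06. Against genes of like length ADE16 spanned 0.12. How the authors' counting divided reads between these similar genes is not given in the sources used here, so their split is uncertain.

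On the guanine side of IMP, all 4 genes lay above the median gene in each library. Among the 5667 genes, the numbers above it were 2993, 2987, 2994 and 2993. IMD2, IMD3 and IMD4 encode IMP dehydrogenase and GUA1 GMP synthase. IMD2 stood at 1.86, 1.96, 1.81 and 1.52 multiples and IMD3 at 3.20, 4.75, 3.12 and 3.07. IMD4 stood at 4.84, 4.13, 4.21 and 2.75 multiples and GUA1 at 4.70, 6.43, 3.80 and 5.04. None of the 4 spanned 2-fold in the setting used, against 35.9% of the 5667 genes, and their highest span was 0.80. A list this small gives little ground for a difference from that share. The IMD genes are close copies of each other, which makes their single values uncertain.

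Glycine and folate enzymes feed carbon into the pathway. The 15 genes had a median relative level of 0.72, 0.32, 0.56 and 0.20 and a median span of 0.88, and 6 of 15 spanned 2-fold, against a median span of 0.79 and 35.9% among all 5667 genes, so the list lay near the background. Against genes of like length 4 of 15 did, against 28.8%, and GCV3 (0.88) and DFR1 (0.96), named below, were no longer among them. SHM2, the cytosolic serine hydroxymethyltransferase and a known Bas1 target, stood at 1.71, 4.91, 1.58 and 2.75 multiples. Its span of 1.57 was close to that of ADE12. Its library order was that of ADE1 and ADE17, held by 8.65% of the 5667 genes. The glycine cleavage genes GCV1, GCV2 and GCV3 differed from one another. GCV3 had 1.11, 2.99, 1.27 and 2.46 multiples, GCV2 had 0.431, 0.839, 0.345 and 0.371, and GCV1 had 0.795, 0.915, 0.800 and 0.492. LPD1, the dehydrogenase subunit shared with that complex, had 2.28, 3.68, 2.25 and 2.84 multiples. MIS1, the mitochondrial counterpart of ADE3, had 2.60, 2.46, 2.23 and 1.76. DFR1, dihydrofolate reductase, was low at 0.212, 0.792, 0.279 and 0.704.

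The 5 PRPP synthetase genes, which make the starting compound, had their highest relative level in library 3 in 4 of 5 cases, PRS1 being the exception, against 15.8% of the 5667 genes. Against genes of like length, library 3 was again the highest in 4 of 5 cases, against 22.6% of the 5667 genes. None of the 5 spanned 2-fold in the setting used, against 35.9% of the 5667 genes. With a list this small, there is little ground for a difference from these shares. PRS5 stood at 5.27, 3.81, 5.64 and 3.74 multiples, PRS3 at 2.92, 2.76, 3.41 and 1.89, and PRS4 at 1.21, 1.45, 1.46 and 0.841. Of the 13 salvage and transport genes, 2 spanned 2-fold, where 35.9% of the 5667 genes did. These were FCY22, of the purine-cytosine permease family, at 0.335, 0.716, 0.261 and 0.197 multiples, and GUD1, guanine deaminase, at 0.729, 1.42, 0.529 and 1.14. The coverage of FCY22 was only 4.27, 2.65, 2.13 and 0.44, so its values, that of library 4 above all, are uncertain. The abundant ADO1, adenosine kinase, stood at 4.47, 7.11, 5.30 and 5.35 and APT1, adenine phosphoribosyltransferase, at 3.20, 3.54, 4.16 and 2.99.

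Of the 4 nucleotide kinase genes, which act downstream of AMP and GMP, 3 spanned 2-fold, against 35.9% of the 5667 genes, and each of these had its higher values in libraries 2 and 4, as ADE12 did. ADK1, the main adenylate kinase, stood at 4.57, 10.99, 6.11 and 10.8 multiples. GUK1, guanylate kinase, stood at 1.35, 4.49, 2.05 and 4.20. YNK1, nucleoside diphosphate kinase, named here after its values were seen, stood at 1.64, 3.66, 1.69 and 3.10. All of these genes are short, at 669, 564 and 462 bases, and length moved with the library profiles as described above. Against genes of like length GUK1 still spanned 2-fold at 1.08, but ADK1 (0.74) and YNK1 (0.78) did not.

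Of the regulators, BAS1 stood at 1.14, 0.609, 1.04 and 0.371 multiples, with a span of 1.40. It was highest in library 1 and lowest in library 4. Against genes of like length its span was 0.96, under 2-fold, and its highest level was in library 3. PHO2 varied little, at 1.20, 0.947, 1.07 and 1.24, with a span of 0.36. GCN4, the activator of amino acid synthesis genes, which binds DNA motifs like those of Bas1, stood at 3.41, 6.82, 3.01 and 4.88. Its span was 1.16 and its library order was that of ADE1, ADE17 and SHM2. That order was held by 8.65% of the protein-coding genes that passed the filter. Other listed genes had it too, among them GUA1, LPD1, GUD1 and URA5, so it does not single out these genes. Whether they share regulation was not tested.

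**Figure D5:**
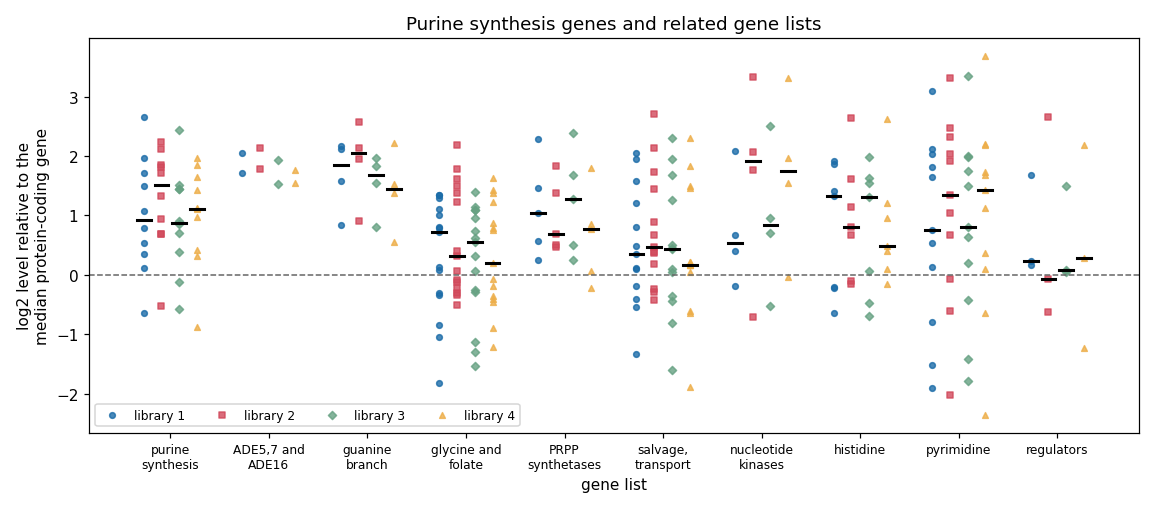
Log2 level relative to the median protein-coding gene (dashed line at 0) for the purine synthesis genes and for related gene lists. Each point is 1 gene in 1 library, and black bars are medians of lists with at least 3 genes. URA3, listed at 0 in each library, is left out. Purine synthesis genes have medians of 0.93, 1.51, 0.88 and 1.11, and the guanine branch lies wholly above 0.

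The genes whose profile was nearest to the members' median profile were sought among 3601 other protein-coding genes whose median TPM reached 10. Likeness was the largest absolute difference in any of the 4 libraries, on the centred log2 scale. The nearest 10 were SIC1 (0.03), YOR015W (0.05), STP1 (0.05), GPI16 (0.05), RSM7 (0.05), VRG4 (0.05), RPF2 (0.06), GCD1 (0.07), PKP1 (0.07) and IMD2 (0.07). The median profile itself was nearly flat, at 0.00, 0.13, -0.04 and -0.15, and 275 genes came within 0.2 log2 units of it. MTD1 (0.12) and ADE2 (0.16) were the members nearest to it and ADE12 (0.93) the farthest.

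The members share no chromosomal cluster. They lie on 8 chromosomes, and no annotated entry overlaps any of them. The nearest entry to a member was KIN3, on the opposite strand 100 bases from ADE1.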

How the data were processed

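RNA of 4 libraries was measured by RNA-seq. Per the file headers the authors deposited TPM, which sums to the same total over all 7108 genes with ribosomal RNA included. A coverage signal, the mean depth over each gene, was also deposited. The submitters' processing notes name sacCer3 as build and list SAMtools, Picard and BWA for the whole series. The estimator and strandedness are not given in the sources used here. The tables used hold no read counts, so no sampling intervals were computed and the precision is unknown beyond the coverage quoted. The labels put no library in a group, so no p-values were computed.

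RefSeq's table for assembly R64 matched 6011 identifiers, 5997 with equal start, and gave the protein-coding class. TPM was divided by that of the median of 5989 nuclear protein-coding genes and taken as log2(multiple + 0.1), less the value of the median gene, which understates differences of low genes. Background shares used 5667 genes whose median TPM reached 1. Promoters were not examined. The members and lists were chosen with earlier results of these data known.

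Named were all members, the other IMP pathway genes, the guanine branch and the regulators, with SHM2, MIS1 and GCV1 to GCV3. The 2 genes of largest span and the 2 of highest median TPM were taken from each other list, and 10 genes of like profile were added. Alternatives were offsets of 0.01 and 0.5, log2(TPM + 1), another median gene, median-ratio scaling, coverage, other filters, each library left out, and (added later) genes of like length. A library was marked as far off where Dixon's ratio passed 0.829. The calculation of spans was tested on simulated data with known shifts, which held no effect of gene length or read depth. That test therefore does not show how such effects act on the spans given here. Computation used pandas 2.3.3, numpy 2.4.6 and scipy 1.17.1 under Python 3.11.15, and plots matplotlib 3.10.9.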

Additional observations from a re-analysis of the deposited data

How the results depend on the processing

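Of 235 values recomputed under alternatives, at least 41 could not move by construction, such as those from coverage, a constant multiple of TPM. Of the other 194, 171 stayed within 1 SD or within 1.5 times of a count or share. The SD was taken over libraries for levels and over members for spans. No median level changed sign, and spans, counts and shares cannot be negative. Leaving out a library cannot change the median level of a kept library, nor a span whose highest and lowest libraries were kept. Not all such values were among the 41, so the 171 include values that had no way to move. With the median gene over genes whose median TPM reached 10, the members' median levels in libraries 1 to 4 were 0.24, 0.82, 0.21 and 0.41, and 1 member was 2-fold above in every library, since that median gene is higher by construction. Against that median gene 7.71% of the 5667 genes were. With the original median gene but the background limited to genes whose median TPM reached 10, 23.99% were, where 4 of 10 members were. The members were not so limited, and MTD1, at a median TPM of 8.08, did not reach 10. With an offset of 0.5, 1 member, ADE12, spanned 2-fold. With log2(TPM + 1), 1 member was highest in library 3 and 0 in library 4. With genes of like length, 1 member was highest in library 1, 2 in library 3 and 1 in library 4. The cause of these last changes was not tested. With each library left out in turn, the number spanning 2-fold ranged from 1 to 3, the number highest in library 3 from 1 to 3 and in library 4 from 2 to 4. Leaving out a library cannot widen a span or lower the number highest in a kept library, for any genes. Shares of the 5667 genes are not given for these counts, nor for the offset of 0.5 or log2(TPM + 1). Whether the members moved apart from other genes there was not tested. The median span ranged from 0.49 to 0.75 over all alternatives. Depth limits library 4 most, where the median gene had a coverage of 2.26. No paired analysis was possible because the labels give no groups.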

Other observations

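Histidine synthesis branches from purine metabolism, since it uses ATP and releases AICAR, an intermediate of the purine route. Its 7 genes had a median relative level of 1.33, 0.80, 1.31 and 0.49 log2 units in libraries 1, 2, 3 and 4, and 1 of 7, HIS3, spanned 2-fold, against 35.9% of 5667 protein-coding genes. HIS4, whose protein carries several steps, stood at 4.07, 3.26, 3.32 and 2.45 multiples of the median gene. Its library order was that of ADE2, ADE3 and ADE4, held by 13.01% of the 5667 genes. HIS7, which releases AICAR, had the same order at 2.67, 1.81, 2.62 and 1.35. HIS1, the first enzyme, stood at 3.89, 6.76, 4.26 and 6.64, and HIS3, imidazoleglycerol-phosphate dehydratase, at 0.605, 0.922, 0.577 and 1.45. Against genes of like length HIS3 spanned 0.92, under 2-fold, and HIS4 and HIS7 no longer shared an order. In that setting none of HIS4, HIS7, ADE2, ADE3 and ADE4 kept the order 1, 3, 2, 4.

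Of the 12 pyrimidine genes, URA3 was listed at 0 in each library. The other 11 had medians of 0.75, 1.34, 0.80 and 1.43, and 2 spanned 2-fold, against the same 35.9%. These were URA10, a minor orotate phosphoribosyltransferase, at 0.284, 0.952, 0.312 and 1.08 multiples, and the uridylate kinase gene URA6 at 0.536, 1.65, 0.715 and 1.32. Against genes of like length URA10 spanned 1.30 and URA6 0.90. URA1, dihydroorotate dehydrogenase, was far above the median gene in each library at 9.30, 10.9, 11.1 and 14.1, and URA5, the major orotate phosphoribosyltransferase, stood at 4.66, 6.01, 4.24 and 4.97. No member was marked as having a library far from the others, and the highest Dixon ratio among the 10 was 0.658, for MTD1.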
